A study of Arabidopsis thaliana with 6 samples.

Results

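Expansins, xyloglucan endotransglucosylase/hydrolases (XTH) and glycoside hydrolase family 9 endoglucanases (GH9) were followed in vegetative shoot apices of Arabidopsis thaliana. Members were all genes with a probe set of their own whose symbol starts with EXPA, EXPB, EXLA, EXLB, XTH or GH9. This gave 42 of the 13350 genes named on the array, among them 10 alpha-expansins, 4 beta-expansins, 4 expansin-like genes, 9 XTH genes and 15 GH9 genes. Each of the 42 had 1 probe set. The TAIR10.1 gene table lists 85 genes with these symbol stems, so 43 of them, EXPA1, EXPA5 and GH9A1 among them, were not analysed here. A further 4 probe sets pair such genes with several genes at once and were left out.

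Total RNA came from 3 groups of plants grown in short days for 7 days, with 2 Affymetrix arrays per group. The plants overexpressed miR164b in Col-0, overexpressed miR172a in Col-0, or were Columbia plants with the empty pML_Bart plasmid, called vector below. Neither the promoter that drives each microRNA nor the number of transgenic lines or pooled plants is given in the sources used here. No label ties the arrays of 1 group to separate plants, so the p-values may rest on technical spread only.

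Plant cells enlarge when the wall yields to turgor, and these families act on that step in different ways. Expansins loosen the contact between cellulose and the matrix glycans at acid pH without cutting the chains, and alpha-expansins are the classic agents of acid growth. Members of the XTH family cut xyloglucan, the main matrix glycan that coats cellulose in these plants, and rejoin it to another chain or to water. GH9 enzymes cleave 1,4-beta-glucans, with class A anchored in a membrane, class B secreted and class C carrying a carbohydrate-binding module. In shoot apices, expansin activity is known for its link with the outgrowth of leaf primordia.

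Values are the deposited scaled intensities, and log2 differences, each with its standard error, were computed from log2(intensity + 16). A member is said to have risen or fallen where limma's adjusted p, taken over all 22746 tested probe sets, was under 0.05. On all 6 arrays 8 of the 42 members read below 16, a level at which the added 16 hides most change: EXPA21, EXPA24, EXLA3, XTH21, XTH26, XTH29, GH9B6 and GH9B11. Of 21 listed apex genes 4 were measured under a name, CLV3, LAS, YAB3 and PHV, and none of them read 0 on any array. Neither did any of the 42 members, the root-hair genes EXPA7 and EXPA18 included, so this cannot check the tissue label. The summed level of those 4 was 1012 and 1061 in miR164b, 1147 and 1119 on the miR172a arrays and 1166 and 1155 on the vector arrays. PHV and YAB3, the brightest of them, made up most of that sum. LAS, YAB3 and PHV read lower in miR164b than in vector. CLV3 read higher, at 64.6 and 82.4 in miR164b against 59.7 and 42.5 in vector (log2 0.42, adjusted p = 0.256 by limma). Control probe sets for 25S rRNA and the actin probe sets named r2 differed between arrays. On these the miR164b arrays stood apart from the vector arrays, and the miR172a arrays were split between them. For 25S rRNA the miR164b arrays gave 443.2 and 528.5, the miR172a arrays 355.4 and 3462, and the vector arrays 4070 and 4093. The 3'/5' ratio of the r2 actin probe sets climbs as RNA or its labelling is cut short. It was 1.96 and 2.11 for miR164b, 2.25 and 3.05 for miR172a, and 3.0 and 2.94 for vector. Another actin pair read 2300.7 and 2345 at the 3' end and 194 and 254.9 at the 5' end in miR164b. On the miR172a arrays that pair read 2477.7 and 2291.6, then 206.6 and 183.4. In vector its values were 2230.1 and 2223.4, then 167 and 155.4. The part of these control differences in the differences below was not tested. In whole apices, fewer cells of a type and less RNA per cell cannot be told apart.

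Over the 3 comparisons 12 of the 42 members passed the test at least once and 30 did not, where 9.94% of all probe sets passed at least once. Those 12 were 4 alpha-expansins (EXPA4, EXPA8, EXPA9 and EXPA15), the expansin-like genes EXLA1 and EXLB1, the XTH genes XTH16, XTH19 and XTH32, and the GH9 genes GH9B8, GH9B13 and GH9C2. None of the 4 beta-expansins passed in any comparison.

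**Figure D1:**
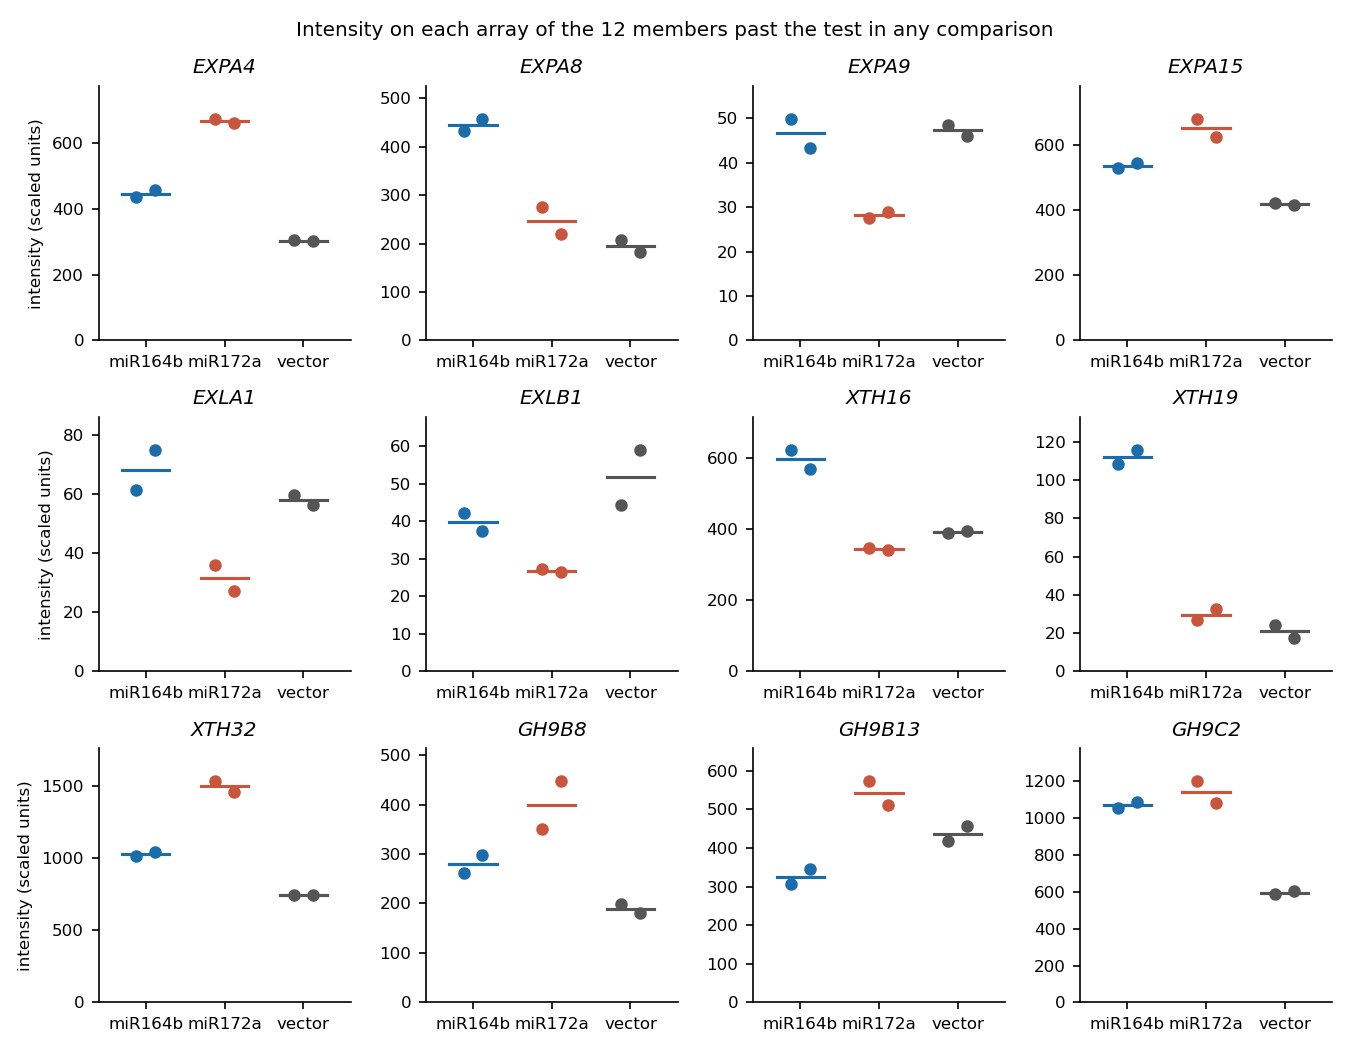
Scaled intensity (y axis, linear and starting at 0, a scale of its own for each gene) on each array of miR164b, miR172a and vector apices for the 12 members that passed the test in at least 1 comparison. Points are single arrays and lines the mean of the 2 arrays. XTH19, EXPA8 and XTH16 are highest on the miR164b arrays, EXPA4, EXPA15, XTH32 and GH9B8 are highest on the miR172a arrays, and EXPA9, EXLA1 and EXLB1 are lowest there.

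The first comparison asks which of these genes differ when miR164b is overproduced. In miR164b apices 5 of the 42 members rose and 0 fell: XTH19, EXPA8, GH9C2, XTH16 and EXPA4. Over all probe sets 1.79% passed in this comparison, 0.950% higher and 0.840% lower, and with median centring 1.12% and 0.681%. With that centring the members' calls were 6 higher and 0 lower, with XTH32 added. By subfamily the calls were 2 of 10 alpha-expansins, 2 of 9 XTH genes and 1 of 15 GH9 genes, and 0 of 4 beta-expansins and 0 of 4 expansin-like genes.

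Among the alpha-expansins, EXPA8 (AT2G40610) showed the larger change. It read 432.3 and 456.8 on the miR164b arrays, against 207.5 and 183.3 on the vector arrays (log2 1.13 ± 0.13, adjusted p = 0.0240). Both miR164b arrays lay above both vector arrays by more than the spread within either group. EXPA4 (AT2G39700) read 434.9 and 455.8 on the miR164b arrays, against 304.9 and 300.9 on the vector arrays (log2 0.53 ± 0.08, adjusted p = 0.0446). The groups did not overlap. EXPA15 read 530.0 and 542.9 in miR164b against 421.7 and 414.7 in vector, which did not pass (log2 0.35 ± 0.08, adjusted p = 0.123). EXPA9 read 49.8 and 43.4 in miR164b against 48.6 and 46.1 in vector, with overlapping arrays (adjusted p = 0.941).

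Of the expansin-like genes, EXLA1 read 61.6 and 75.0 in miR164b against 59.9 and 56.3 in vector (adjusted p = 0.518). EXLB1 read 42.2 and 37.4 in miR164b against 44.4 and 58.9 in vector (adjusted p = 0.320). Neither passed.

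Of the xyloglucan enzymes, XTH19 (AT4G30290), known mainly from growing roots, showed the widest change of all 42 members in this comparison. It read 108.5 and 115.7 on the miR164b arrays, against 24.5 and 17.3 on the vector arrays (log2 1.80 ± 0.13, adjusted p = 0.00575). This difference stood at rank 22 from the top of 22746 probe sets. Because the vector arrays lie close to the offset, its size depended on the offset, with log2 2.39 at an offset of 1 and 1.05 at 64. XTH18, the protein-coding gene next to XTH19 in the TAIR10.1 order and a close paralog, read 6.3 and 1.9 on the miR164b arrays, against 2.7 and 16.6 on the vector arrays, and the groups overlapped (adjusted p = 0.616). XTH16 (AT3G23730) read 622.0 and 569.7 on the miR164b arrays, against 389.7 and 395.8 on the vector arrays (log2 0.58 ± 0.08, adjusted p = 0.0429). XTH32 (AT2G36870), of the subgroup linked with xyloglucan hydrolysis, read 1014.9 and 1045.0 in miR164b against 746.9 and 740.8 in vector, and did not pass (log2 0.46 ± 0.08, adjusted p = 0.0617).

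Of the endoglucanases, GH9C2 (AT1G64390), of the class with a carbohydrate-binding module, read 1056.5 and 1088.7 on the miR164b arrays, against 587.9 and 604.3 on the vector arrays (log2 0.83 ± 0.09, adjusted p = 0.0190). The distance between the groups far exceeded the spread within either. GH9B8, a secreted-class member, read 261.3 and 297.8 in miR164b against 199.6 and 179.9 in vector (log2 0.52 ± 0.14, adjusted p = 0.151). GH9B13, of the same class, read 306.4 and 344.5 in miR164b against 417.4 and 456.1 in vector (log2 -0.41 ± 0.11, adjusted p = 0.144). GH9A4 read 16.7 and 18.7 in miR164b against 28.1 and 25.9 in vector (log2 -0.35 ± 0.08, adjusted p = 0.116). None of these 3 passed, although their arrays did not overlap.

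Across the 42 members the median log2 difference was 0.02, and over all probe sets it was -0.05. Both miR164b arrays lay above both vector arrays for 14 members and below both for 5, where 19.1% and 32.5% of all probe sets did so. With any 1 array left out fewer members passed, and fewer of all probe sets did so too. EXPA4 and XTH16 lost their call without any one of the 6 arrays (adjusted p up to 0.264 and 0.250), GH9C2 and EXPA8 without any one of the 4 arrays compared (up to 0.182 and 0.206), and XTH19 without either miR164b array (up to 0.0973).

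The second comparison asks the same of miR172a. In miR172a apices 5 of the 42 members rose, namely EXPA4, GH9B8, XTH32, GH9C2 and EXPA15, and 2 fell, namely EXPA9 and EXLB1. Over all probe sets 5.87% passed, 3.23% higher and 2.64% lower, and with median centring 2.81% and 2.9%. Neither fall passed with an offset of 1, with the intensity trend or with only the 2 groups compared. The members that rose were 2 of 10 alpha-expansins, 1 of 9 XTH genes and 2 of 15 GH9 genes, and those that fell were 1 alpha-expansin and 1 of 4 expansin-like genes.

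EXPA4 read 671.3 and 658.3 on the miR172a arrays, against 304.9 and 300.9 on the vector arrays (log2 1.09 ± 0.08, adjusted p = 0.00389). It stood at rank 111 from the top of all probe sets. EXPA15 (AT2G03090) read 678.8 and 623.6 on the miR172a arrays and 421.7 and 414.7 on the vector arrays (log2 0.62 ± 0.08, adjusted p = 0.0195). The opposite direction was seen for EXPA9 (AT5G02260), at 27.5 and 28.9 in miR172a against 48.6 and 46.1 in vector (log2 -0.52 ± 0.09, adjusted p = 0.0351). EXPA8 read 275.9 and 219.3 in miR172a against 207.5 and 183.3 in vector, and did not pass (log2 0.31 ± 0.13, adjusted p = 0.251).

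The expansin-like proteins share the fold of expansins, but no wall-loosening activity is established for them. EXLB1 (AT4G17030) read 27.2 and 26.5 on the miR172a arrays, against 44.4 and 58.9 on the vector arrays (log2 -0.65 ± 0.12, adjusted p = 0.0446). EXLA1 (AT3G45970) read 36.2 and 27.1 in miR172a against 59.9 and 56.3 in vector, just outside the threshold (log2 -0.64 ± 0.13, adjusted p = 0.0531). Its fall passed with an offset of 64, median centring, quantile normalization, or without the 40% dimmest probe sets. The call of EXLB1 was lost under 11 of 13 alternatives. Neither gene's arrays overlapped between the groups. At these low levels the sizes depend on the offset: EXPA9 gave -0.73 at an offset of 1 and -0.27 at 64, and EXLB1 gave -0.91 and -0.35.

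XTH32 read 1532.2 and 1460.4 on the miR172a arrays, against 746.9 and 740.8 on the vector arrays (log2 0.99 ± 0.08, adjusted p = 0.00545). The distance between the groups was many times the spread within them. XTH19 read 27.0 and 32.5 in miR172a against 24.5 and 17.3 in vector (log2 0.31 ± 0.13, adjusted p = 0.233). XTH16 read 347.0 and 340.8 in miR172a against 389.7 and 395.8 in vector (log2 -0.18 ± 0.08, adjusted p = 0.291). Neither of these genes passed, and the 95% interval of XTH16 ran from -0.39 to 0.03.

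GH9B8 (AT2G32990) read 350.8 and 447.3 on the miR172a arrays, against 199.6 and 179.9 on the vector arrays (log2 1.004 ± 0.14, adjusted p = 0.0209). Its miR172a arrays differed from each other more than its vector arrays did, and both lay above all of vector. GH9C2 read 1200.9 and 1079.9 on the miR172a arrays and 587.9 and 604.3 on the vector arrays (log2 0.92 ± 0.09, adjusted p = 0.00928). The secreted-class gene GH9B13 read 572.9 and 510.2 in miR172a against 417.4 and 456.1 in vector (log2 0.30 ± 0.11, adjusted p = 0.190).

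The median log2 difference of the 42 members was 0.12, and that of all probe sets was -0.0017. Both miR172a arrays lay above both vector arrays for 14 members and below both for 5, where 24.9% and 23.8% of all probe sets did so. EXPA4 and XTH32 kept their call under all 14 alternatives run, with adjusted p up to 0.0465 and 0.0496. Fewer members passed with any 1 array left out, and so did fewer of all probe sets. GH9C2 lost its call without any one of the 4 arrays compared (adjusted p up to 0.0620), and GH9B8, EXPA15, EXPA9 and EXLB1 lost theirs without any one of the 6 (up to 0.159).

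**Figure D2:**
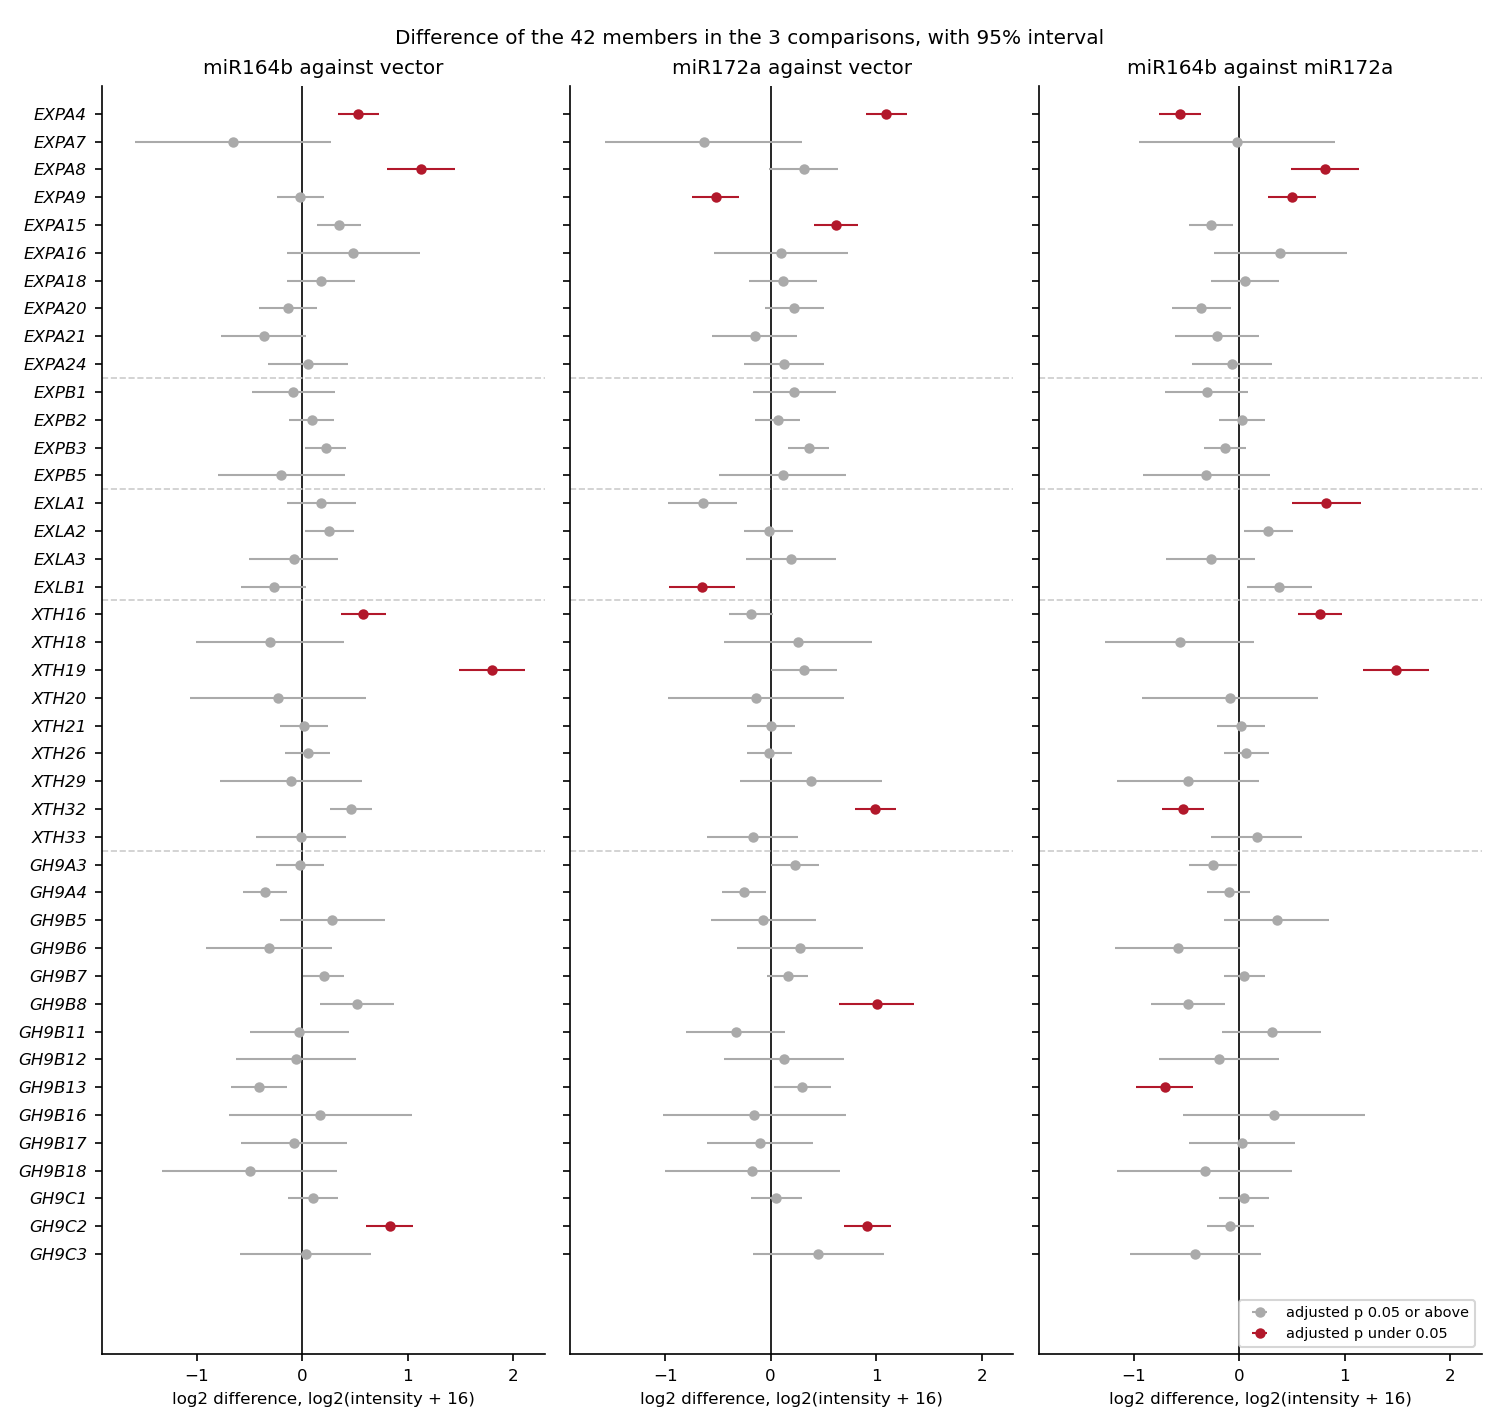
Log2 difference (x axis, on the log2(intensity + 16) scale) of each of the 42 members in the 3 comparisons, ordered by subfamily with dashed lines between alpha-expansins, beta-expansins, expansin-like, XTH and GH9 genes. Bars are unadjusted 95% intervals, and red marks an adjusted p under 0.05. Red points number 5 on the left, all above 0, then 7 in the middle with 2 below 0, and 8 on the right with 3 below 0.

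Both lines were set against the same vector arrays, so their differences from vector are not independent of each other. GH9C2 and EXPA4 passed in both. For GH9C2 the log2 differences were 0.83 in miR164b and 0.92 in miR172a, and for EXPA4 they were 0.53 and 1.09. The direct comparison of the lines, which uses the vector arrays only for the shared estimate of spread, tests which of these differences themselves differ.

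Between the lines 5 of 42 members were higher in miR164b than in miR172a (XTH19, EXLA1, EXPA8, XTH16 and EXPA9) and 3 were lower (GH9B13, EXPA4 and XTH32). Over all probe sets 7.14% passed, 3.11% higher and 4.02% lower, and with median centring 4.36% and 2.87%, a split that turned, while the members' split stayed at 5 and 3. The XTH family held calls in both directions. XTH19 averaged 112.1 ± 5.09 in miR164b and 29.8 ± 3.89 in miR172a (SD, n = 2 each, log2 1.49 ± 0.13, adjusted p = 0.00501 by limma). That size was 1.88 at an offset of 1 and 0.91 at 64. XTH16 averaged 595.9 ± 37.0 in miR164b and 343.9 ± 4.38 in miR172a (log2 0.76 ± 0.08, adjusted p = 0.00976). XTH32 averaged 1030 ± 21.3 in miR164b and 1496 ± 50.8 in miR172a (log2 -0.53 ± 0.08, adjusted p = 0.0210).

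The alpha-expansins also held calls in both directions. EXPA8 averaged 444.6 ± 17.3 in miR164b and 247.6 ± 40.02 in miR172a (log2 0.81 ± 0.13, adjusted p = 0.0253). EXPA9 averaged 46.6 ± 4.53 in miR164b and 28.2 ± 0.990 in miR172a (log2 0.50 ± 0.09, adjusted p = 0.0339). Its log2 difference was 0.70 at an offset of 1 and 0.26 at 64, and the call was lost under 10 of 13 alternatives. EXPA4 averaged 445.4 ± 14.8 in miR164b and 664.8 ± 9.19 in miR172a (log2 -0.56 ± 0.08, adjusted p = 0.0179). EXPA15 was not separable by the test, at 536.5 ± 9.12 in miR164b and 651.2 ± 39.0 in miR172a (log2 -0.27 ± 0.08, adjusted p = 0.127).

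EXLA1 averaged 68.3 ± 9.48 in miR164b and 31.7 ± 6.43 in miR172a (log2 0.83 ± 0.13, adjusted p = 0.0251), with log2 1.09 at an offset of 1 and 0.47 at 64. EXLA3, the next protein-coding gene to EXLA1, read 2.8 and 4.2 in miR164b and 9.4 and 5.8 in miR172a, below 16 throughout. GH9B13 averaged 325.4 ± 26.9 in miR164b and 541.5 ± 44.3 in miR172a (log2 -0.71 ± 0.11, adjusted p = 0.0222), with the vector mean of 436.8 ± 27.4 in between. GH9C2, which rose in both lines, gave a log2 difference of -0.09 with a 95% interval from -0.31 to 0.14 (adjusted p = 0.638). Of the members that passed against vector in either line, EXPA15, GH9B8, GH9C2 and EXLB1 did not pass between the lines.

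The median log2 difference of the members was -0.08, and that of all probe sets was -0.06. Arrays did not overlap for 13 members higher and 17 lower in miR164b, where 19.4% and 34.0% of all probe sets did so. With any 1 array left out fewer members and fewer of all probe sets passed. Without either miR164b array all of the calls were lost. Each of the 8 calls was lost without some array, with adjusted p up to 0.175.

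**Figure D3:**
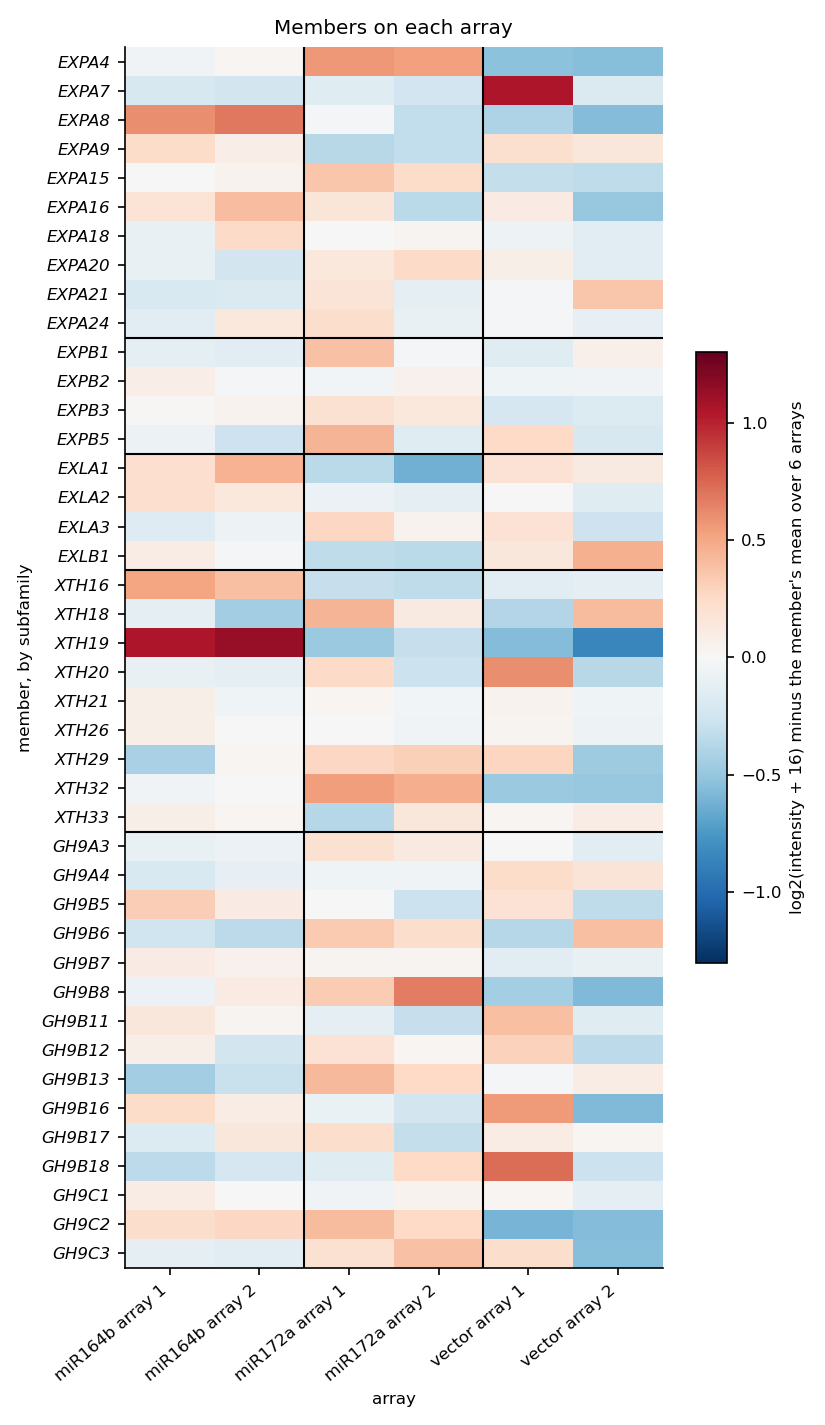
Each row is 1 of the 42 members and each column 1 array, in the order miR164b, miR172a, vector. Colour is log2(intensity + 16) minus the member's own mean over the 6 arrays, blue below that mean and red above it. The deviations run from -0.85 to 1.14, and levels of different genes are not compared. XTH19 is red on both miR164b arrays, EXPA4 and XTH32 are red on both miR172a arrays and blue on both vector arrays, and EXPA7 stands out on vector array 1.

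Several members without a call differed between arrays of the same group by more than between groups. EXPA7, a root-hair expansin, read 4.5 and 4.1 in miR164b, 5.2 and 4.0 in miR172a, and 33.1 and 4.8 in vector. Vector array 1 alone stood above the rest. EXPA18, the other root-hair expansin, read 24.4 and 35.4 in miR164b, 27.4 and 28.2 in miR172a, and 25.3 and 23.3 in vector. GH9B18 read 46.2 and 51.7 in miR164b, 54.4 and 78.0 in miR172a, and 114.1 and 48.6 in vector, where array 1 was again the high one. XTH20, a relative of XTH19, read 11.7 and 11.4 in miR164b, 19.1 and 8.4 in miR172a, and 29.1 and 7.0 in vector.

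Other members without a call read close together within each group. The beta-expansin gene EXPB3 read 812.3 and 831.0 in miR164b, 924.7 and 885.1 in miR172a, and 691.6 and 712.2 in vector. Both lines lay above vector without overlap, but neither difference passed (log2 0.22 and 0.36, adjusted p = 0.229 and 0.0640). The rise in miR172a did pass with an offset of 64, with an intensity trend and without the 40% dimmest probe sets. GH9B7, a secreted-class endoglucanase gene, read 1219.6 and 1179.8 in miR164b, 1159.9 and 1163.0 in miR172a, and 1018.9 and 1057.6 in vector (log2 0.21 and 0.16, adjusted p = 0.251 and 0.321). EXLA2 read 100.3 and 93.4 in miR164b, 78.4 and 76.2 in miR172a, and 83.9 and 73.4 in vector. The remaining beta-expansin genes EXPB1, EXPB2 and EXPB5 had log2 differences from vector between -0.20 and 0.22.

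The rest of the members gave no call and are described by their range over the 6 arrays. Of the alpha-expansins, EXPA16 read between 12.8 and 37.7 and EXPA20 between 71.0 and 106.3. XTH33 read between 14.9 and 28.1. Of the membrane-anchored class, GH9A3 read between 44.9 and 61.4. The secreted-class genes GH9B5, GH9B12, GH9B16 and GH9B17 had highest readings of 39.2, 25, 26.6 and 18.0 and lowest readings of 19.2, 10.3, 3.5 and 7.3. GH9C1, of the same class as GH9C2, read between 14.1 and 19.2, and GH9C3 between 8.8 and 31.4. The 8 members below 16 throughout read between 0.6 and 15.1, less than the added 16 itself.

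Some members lie side by side on a chromosome. Among protein-coding genes of the TAIR10.1 order, XTH18 and XTH19, EXLA1 and EXLA3, GH9B11 and GH9B12, and GH9B16, GH9B17 and GH9B18 are direct neighbours. Of these 9 genes, XTH19 and EXLA1 each passed in at least 1 comparison, and their neighbours did not. XTH18 and EXLA3 read below 20 on every array, and whether probe sets of such close paralogs also bind each other's transcripts was not tested. EXGT-A3, which the gene table also lists as XTH27 and whose symbol falls outside the rule, read 317.3 and 320.4 in miR164b, 202.9 and 254.3 in miR172a, and 316.7 and 326.6 in vector, with no call.

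Other genes of wall growth were mostly not measured under a name here. Of 97 genes on the lists for xyloglucan synthesis and turnover, mannan and xylan hydrolases, cellulose synthesis, proton pumps, wall sensing and growth regulators, 9 had a named probe set. In miR164b 1 of these 9 rose and 0 fell, in miR172a 1 rose and 0 fell, and between the lines 1 was higher and 2 were lower in miR164b. The shares of all probe sets were 0.950% and 0.840%, 3.23% and 2.64%, and 3.11% and 4.02%, higher and lower in each comparison. CSLC4 (AT3G28180, CSLC04 in the gene table), which makes the glucan backbone of xyloglucan, read 412.3 and 453.5 in miR164b against 264.0 and 269.2 in vector (log2 0.67 ± 0.09, adjusted p = 0.0376). It read 310.7 and 286.0 in miR172a, below both miR164b arrays (miR164b against miR172a, adjusted p = 0.0335). HAT2 (AT5G47370), an auxin-induced homeodomain gene, read 260.3 and 300.8 in miR172a against 167.5 and 148.1 in vector (log2 0.77 ± 0.11, adjusted p = 0.0205). Between the lines HAT2 was lower in miR164b, at 162.7 and 169.6 against 260.3 and 300.8 in miR172a (adjusted p = 0.0227). ARL, an ARGOS-like promoter of cell expansion, was lower too, at 139.3 and 135.6 in miR164b against 241.6 and 213.2 in miR172a (adjusted p = 0.0176). The wall-sensing receptor kinase genes FER and THE1 did not pass in any comparison.

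Markers of other cell types were scarce under a name as well. Of 17 root and root-hair genes listed, EXPA7 and EXPA18 were measured, and their summed level was 28.9 and 39.5 in miR164b, 32.6 and 32.2 on the miR172a arrays and 58.4 and 28.1 on the vector arrays. None of 10 epidermis or trichome genes and none of 8 xylem genes was measured under a name. Of the apex genes, LAS, a regulator of axillary meristems, was lower in miR164b than in miR172a. It read 37.6 and 44.3 in miR164b against 63.9 and 65.8 in miR172a (adjusted p = 0.0339). In vector LAS read 60.7 and 60.2, and miR164b against vector did not pass (adjusted p = 0.0976). The other 3 did not pass in any comparison. Of them, YAB3 and PHV were lower in miR164b than in miR172a. CLV3 was higher, at 64.6 and 82.4 in miR164b against 50.9 and 44.9 in miR172a (log2 0.48, adjusted p = 0.152). The part of cell makeup in the differences above was not tested.

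**Figure D4:**
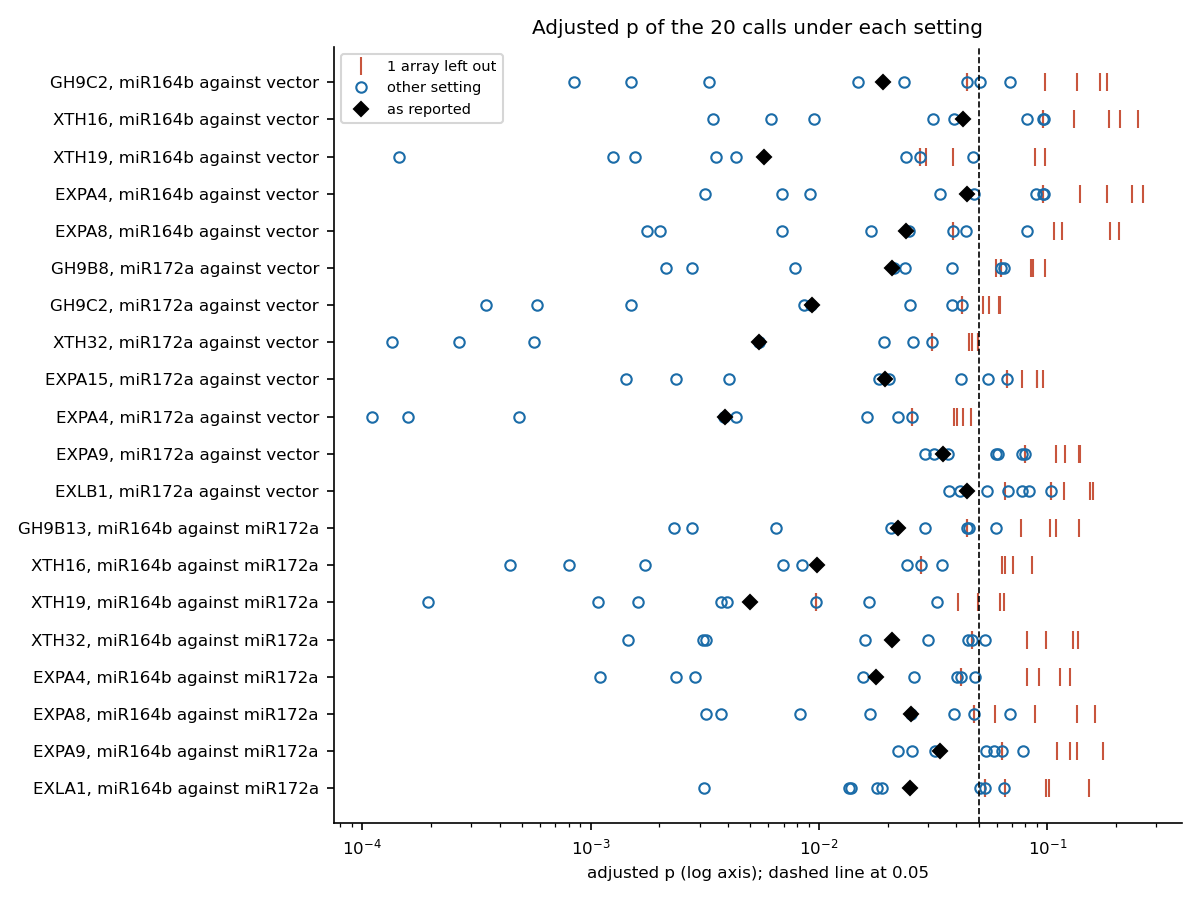
Adjusted p (x axis, log scale) of each of the 20 calls, 5 for miR164b against vector, 7 for miR172a against vector and 8 for miR164b against miR172a. Black diamonds are the values as reported, open circles the other settings and red ticks the fits with 1 array left out, with a dashed line at 0.05. EXPA4 and XTH32 in miR172a against vector stay left of the line throughout, and the other 18 calls cross it under some setting.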

How the data were processed

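The deposited values are 1 linear intensity per probe set and array, made by the authors with a method not given in the sources used here. On each array their mean without the lowest and highest 2% of probe sets was 200, so no further normalization was applied. After 64 control probe sets were removed, log2(intensity + 16) was fitted with limma 3.58.1 in R 4.3.3, with 1 mean per group over all 6 arrays (3 residual and 2.69 prior degrees of freedom). Tests were two-sided, with Benjamini-Hochberg adjustment over 22746 probe sets and a threshold of 0.05. The number of arrays limits the precision. Names came from the supplied array annotation, and all 42 members matched the TAIR10.1 table.

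The members and lists were chosen with earlier results of these data known. Every member may be named, and values on all arrays are given for called members. The direct neighbours, EXGT-A3 and members with uneven arrays were chosen after their values were seen. The fit was tested on simulated data with 200 changed probe sets, independent arrays and a spread drawn from the fit's own prior. Over the 3 comparisons it recovered 64.6% to 67% of changes of log2 1 and 94.4% to 94.6% of those of log2 2. Of the calls, 3.5% to 5.14% were false. Because the simulated arrays were independent, this cannot check for technical repeats or uneven RNA. Alternatives were other offsets, scalings, filters and designs, and each array left out. Figures used matplotlib 3.10.9.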

Additional observations from a re-analysis of the deposited data

How the results depend on the processing

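None of the 20 calls turned its direction under the alternatives run, and 2 of them, EXPA4 and XTH32 in miR172a against vector, were kept throughout. For miR164b against vector the 5 calls (1.79% of all probe sets) became 1 with an offset of 1 (0.453%) and 3 with only the 2 groups compared (0.633%). They became 8 (7 higher, 1 lower) with an intensity trend, where 4.7% of all probe sets passed. Without the 40% dimmest probe sets, which left 17 members to test, they became 9 (8 higher, 1 lower), and 8.41% of the probe sets kept passed. Both settings added EXPA15, XTH32 and GH9B13, and the latter also GH9B8. For miR172a against vector the 7 calls (5.87%) became 3 with an offset of 1 (1.78%) and 3 with only the 2 groups compared (1.58%). For miR164b against miR172a the 8 calls (7.14%) became 3 with an offset of 1 (3%). With any 1 array left out fewer members and fewer of all probe sets passed in each comparison. In such fits a group's lone array is assumed to vary like the other groups. What the replicate letters stand for is not given in the labels. Deviations of same-lettered arrays correlated at -0.01, 0.10 and 0.08 over the 3 pairs of groups. With the letter as a replicate block the counts were 2 for miR164b against vector, 5 for miR172a against vector (5 higher, 0 lower) and 6 between the lines. Of all probe sets 0.818%, 3.5% and 4.85% passed in those fits. Median centring moved the median of all probe sets by at most 0.07 (log2). Over all probe sets the calls were 407, 1336 and 1623 in the 3 comparisons, and 103, 406 and 683 with an offset of 1.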
